A study of Mus musculus with 2 samples.

Results

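Cadherins and nonclustered protocadherins are cell surface proteins through which neighbouring cells recognise and hold each other. The set described here holds 31 genes, chosen by symbol from a list of classical and atypical cadherins, nonclustered protocadherins, and the large Celsr, Fat and Dachsous cadherins. All 31 were found among the 33938 genes of the count tables. Classical cadherins bind like molecules on the next cell through their extracellular repeats and reach the actin skeleton through catenins. Nonclustered protocadherins bind weakly and signal to actin through the WAVE complex, and Celsr, Fat and Dachsous proteins carry planar polarity signals. In the developing cortex these genes are known for marking layers, areas and lineages in overlapping combinations, often called an adhesion code.

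The data are single-nucleus RNA counts (10x Genomics 3′ chemistry) from micro-dissected neocortex of mouse embryos. There were 2 libraries, 1 with the genotype label MEN1-F/F and 1 with the genotype label MEN1-NCKO. Both labels refer to Men1, the gene of the chromatin protein menin. The labels do not state how old the embryos were, how many went into a library, which part of Men1 was deleted or what drove the deletion. Since each label has 1 library and replicate spread is unknown, no test was run, and every interval below covers counting error only.

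The libraries held 6477 (F/F) and 10750 (NCKO) barcodes, of which 6130 and 9807 were kept as nuclei, with a median of 3665 and 3579 UMIs (counted RNA molecules). They shared 15 barcodes, and 336 and 924 likely doublets were removed. The label was checked on Men1 itself, which over all nuclei goes against it as counted. Men1 stood at 10.3 CPM (UMIs per 1e6 UMIs of the same library and population) with the F/F label and 13.4 CPM with the NCKO label over all nuclei, a ratio of 1.30 (95% interval from 1.12 to 1.504). The populations described below went both ways. In upper-layer neuron-like nuclei Men1 stood at 8.93 and 19.4 CPM. It was also higher with the NCKO label in intermediate progenitor-like, layer 6, subplate, medial eminence interneuron-like and striatal-type nuclei. In radial glia-like nuclei it was lower, at 18.6 and 7.55 CPM, from only 16 and 9 UMIs. Migrating, layer 5, caudal eminence interneuron-like, astrocyte-like and oligodendrocyte precursor-like nuclei were lower too. Counts taken near the 3′ end do not test a deletion elsewhere in the gene, so they leave the genotype label unchecked, and each direction below is between libraries as labelled. Epha4, the gene named in the series title, stood at 254 and 160 CPM, a ratio of 0.628 (0.607 to 0.649).

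Nuclei were clustered without the cadherin superfamily genes and clusters were named from marker lists, which gave 12 populations with at least 100 nuclei in each library. These were radial glia-like, intermediate progenitor-like, migrating excitatory neuron-like, upper-layer, layer 5, layer 6 and subplate neuron-like nuclei, interneuron-like nuclei of medial (MGE) and caudal (CGE) ganglionic eminence type, striatal projection neuron-like, astrocyte-like and oligodendrocyte precursor-like nuclei. Striatal-type nuclei are not neocortical, and 675 and 1014 were present. Some populations carried much summed marker RNA of another class. Such sums follow the most abundant markers, while names came from the mean log2 fold of each list over the other clusters. The radial glia-like cluster had Ttr as its leading gene, and its summed choroid plexus markers were 1380 CPM in the F/F-labelled and 253 CPM in the NCKO-labelled library. The subplate-like clusters held more layer 6 marker RNA (6320 and 5664 CPM) than subplate marker RNA (819 and 769 CPM). By naming score the larger of them, cluster 11, stood at 1.63 as subplate and 1.15 as layer 6. Summed radial glia markers were higher in astrocyte-like (3863 and 3827 CPM) than in radial glia-like nuclei (3178 and 3481 CPM). MGE markers stood at 22040 and 19580 CPM in CGE-type and 23330 and 20250 CPM in MGE-type nuclei. CGE markers set these 2 classes apart, at 30970 and 26570 CPM in CGE-type and 297.5 and 190.4 CPM in MGE-type nuclei. Upper-layer markers stood at 8226 and 7662 CPM in migrating excitatory neuron-like and 9357 and 7320 CPM in upper-layer neuron-like nuclei. Another 1317 and 2421 nuclei were in clusters that could not be named. These included cluster 9 (258 and 397 nuclei) and cluster 10 (248 and 387 nuclei). Both scored best as upper-layer neuron, at 0.491 and 0.359, under the naming minimum of 0.5. Upper-layer values below leave them out.

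Promoters of 6 members are shown here, 4 of them with sharply uneven levels between populations (Cdh8, Cdh12, Cdh18 and Cdh20) and both members whose ratio between the libraries was above 1 in 12 of 12 populations (Cdh10 and Pcdh10). They were chosen after their values were seen. Each runs 5′ to 3′ from 250 bases before to 50 bases after a start site, from RefSeq on GRCm38.p6, and capitals mark CG dinucleotides, the sites of cytosine methylation.
Cdh8 promoter (chr8:99416422-99416721, minus strand, GRCm38.p6): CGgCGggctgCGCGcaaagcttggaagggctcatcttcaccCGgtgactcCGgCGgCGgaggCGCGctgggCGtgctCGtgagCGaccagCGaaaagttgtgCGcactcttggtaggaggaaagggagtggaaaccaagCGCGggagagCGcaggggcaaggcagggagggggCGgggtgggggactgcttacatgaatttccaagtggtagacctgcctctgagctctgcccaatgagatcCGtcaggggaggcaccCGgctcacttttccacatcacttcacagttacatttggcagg
Cdh12 promoter (chr15:21111202-21111501, plus strand, GRCm38.p6): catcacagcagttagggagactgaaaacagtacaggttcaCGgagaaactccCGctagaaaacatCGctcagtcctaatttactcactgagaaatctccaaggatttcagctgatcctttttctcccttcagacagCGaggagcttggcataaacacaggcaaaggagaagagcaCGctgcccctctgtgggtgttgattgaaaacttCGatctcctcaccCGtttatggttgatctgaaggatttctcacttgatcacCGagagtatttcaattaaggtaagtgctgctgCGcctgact
Cdh18 promoter (chr15:23036213-23036512, plus strand, GRCm38.p6): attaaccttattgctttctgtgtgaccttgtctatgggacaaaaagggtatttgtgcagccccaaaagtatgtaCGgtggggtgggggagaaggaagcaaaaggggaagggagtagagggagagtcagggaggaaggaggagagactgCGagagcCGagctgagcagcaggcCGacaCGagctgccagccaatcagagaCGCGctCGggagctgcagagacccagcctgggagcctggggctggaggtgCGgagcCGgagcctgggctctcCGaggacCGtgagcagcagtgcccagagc
Cdh20 promoter (chr1:104768270-104768569, plus strand, GRCm38.p6): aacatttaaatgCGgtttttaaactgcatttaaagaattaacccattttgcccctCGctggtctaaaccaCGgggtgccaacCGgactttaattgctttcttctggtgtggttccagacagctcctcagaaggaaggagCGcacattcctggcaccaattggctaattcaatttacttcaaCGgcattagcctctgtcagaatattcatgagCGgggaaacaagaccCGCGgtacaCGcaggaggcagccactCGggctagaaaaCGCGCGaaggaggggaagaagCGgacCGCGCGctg
Cdh10 promoter (chr15:18820079-18820378, plus strand, GRCm38.p6): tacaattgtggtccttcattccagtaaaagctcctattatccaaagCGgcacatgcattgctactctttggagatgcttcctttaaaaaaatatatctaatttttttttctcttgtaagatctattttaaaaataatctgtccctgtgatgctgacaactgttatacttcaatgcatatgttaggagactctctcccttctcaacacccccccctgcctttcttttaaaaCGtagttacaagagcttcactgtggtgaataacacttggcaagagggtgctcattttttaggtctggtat
Pcdh10 promoter (chr3:45378148-45378447, plus strand, GRCm38.p6): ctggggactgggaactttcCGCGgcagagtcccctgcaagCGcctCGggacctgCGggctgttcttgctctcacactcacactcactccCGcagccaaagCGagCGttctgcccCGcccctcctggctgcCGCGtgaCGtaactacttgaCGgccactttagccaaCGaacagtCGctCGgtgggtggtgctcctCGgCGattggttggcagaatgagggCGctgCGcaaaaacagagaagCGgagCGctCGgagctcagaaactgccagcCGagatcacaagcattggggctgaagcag

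CG was searched in 26 promoters of 23 members and in 32851 promoters of all genes. It reads the same on both strands. A CG occurred in 100% of the member promoters and in 94.6% of all. The member promoters held a median of 18 CG, from 2 to 40, and all promoters a median of 7. The Cdh10 promoter shown holds 2 and the Pcdh10 promoter 24, although both genes had ratios above 1 in every population. The Cdh10, Cdh12 and Cdh18 start sites lie 1382, 662187 and 487441 bases inside the annotated genes, so these are internal starts. The Pcdh10 start site lies at the annotated gene start, so the Cdh10 and Pcdh10 counts of CG come from unlike positions. Before CG, 5 motifs without overlap to it had been searched on both strands. CATCTG was in 7.69% of member promoters and 17.2% of all, CAGCTG in 11.5% and 16.3%, ACAAAG in 15.4% and 18.7%, TAATTA in 3.85% and 5.29%, and TATAAA in 7.69% and 13.6%. These matches are letters in a window and describe no binding.

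The first question was how the genes divide the populations. A gene was called raised in a population where its CPM over both libraries was at least 3 times its mean over the 12 populations. By that rule 11 of 31 members (35.5%) were raised somewhere, against 15.7% of the 14338 genes with enough UMIs. In 16 of 31 (51.6%) the highest population was the same in both libraries, against 40.1% of all genes. Without doublet removal the member count was 25. Levels are compared below for 1 gene across populations, never between genes.

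**Figure D1:**
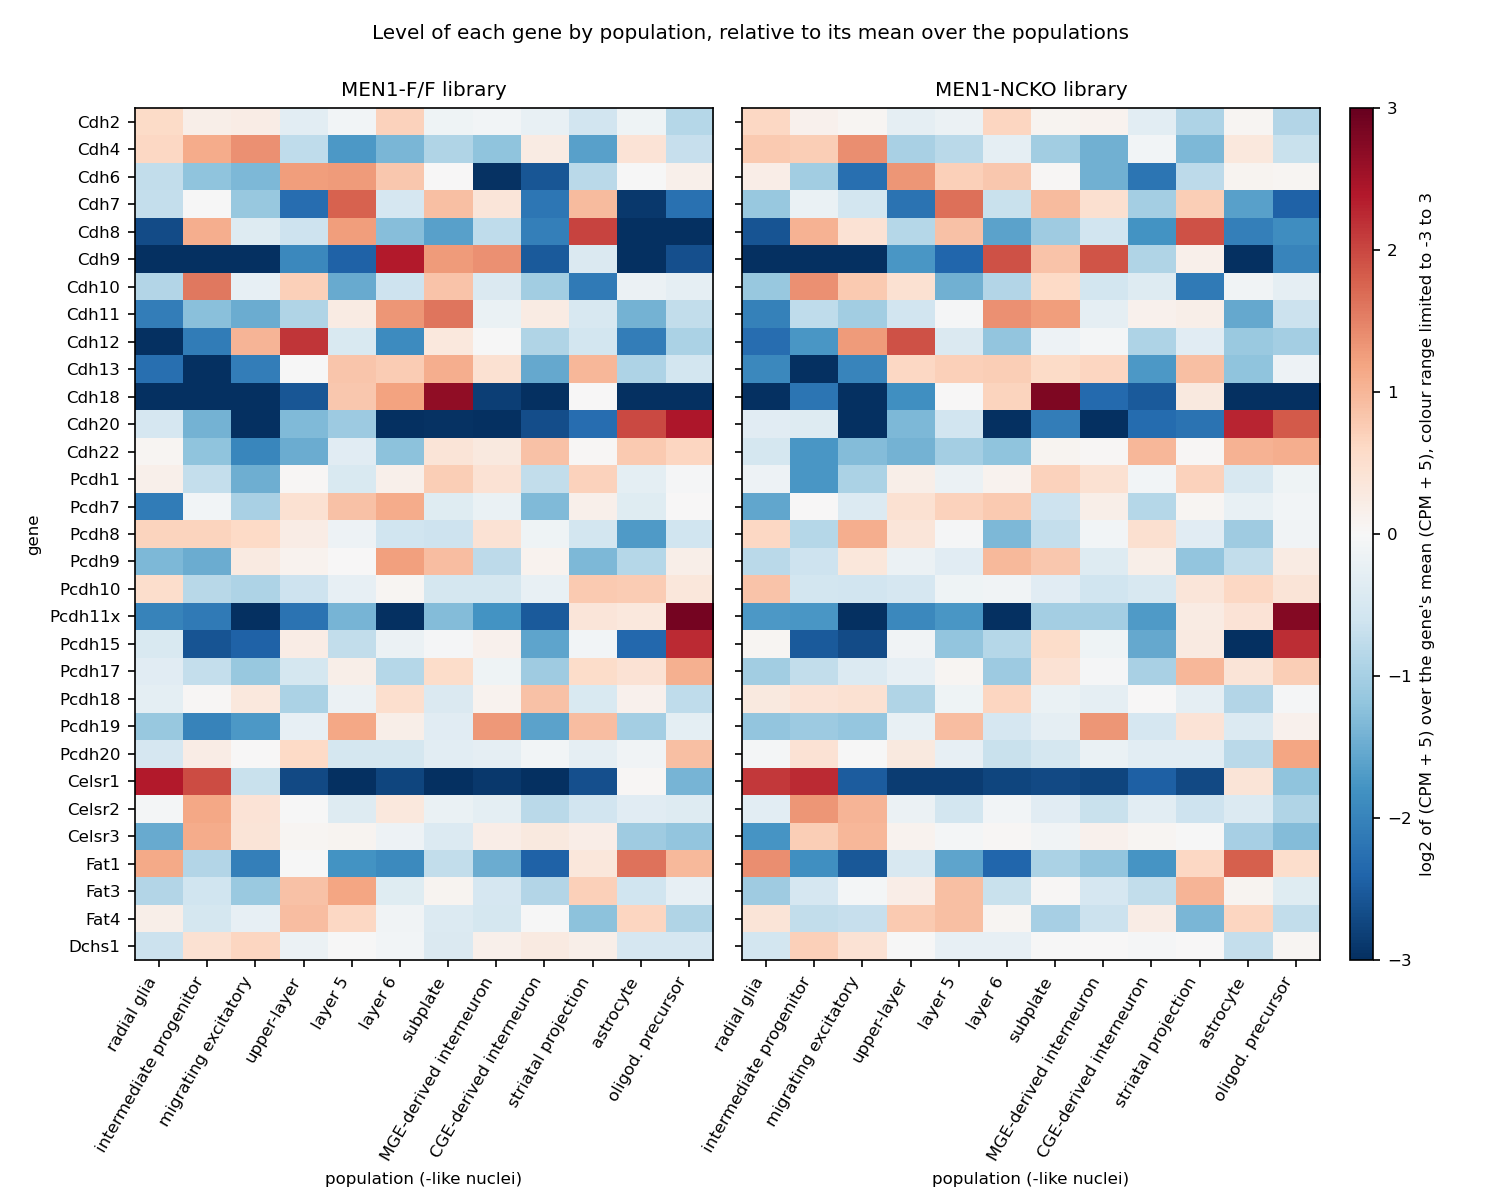
Level of each of the 31 genes (rows) in 12 populations (columns), as log2 of (CPM + 5) over the gene's own mean, with 1 panel per library and colours limited to -3 to 3. Among the darkest red cells are Pcdh11x and Pcdh15 in oligodendrocyte precursor-like nuclei and Cdh18 in subplate neuron-like nuclei, in both libraries.

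Among the classical type II cadherins, several were concentrated in 1 excitatory class. Cdh18 was highest in subplate neuron-like nuclei, at 2407 CPM (F/F) and 2457 CPM (NCKO), and next in layer 6 at 878 and 557 CPM. Over both libraries its subplate level was 6.83 times its mean, and in 8 populations its level was low, the mean being at least 3 times higher. Cdh12 was highest in upper-layer neuron-like nuclei, at 918 and 687 CPM, with migrating excitatory neuron-like nuclei next at 421 and 438 CPM. Within the upper layers it stood at 1240 and 1330 CPM in clusters 7 and 13 and at 475 CPM in cluster 1. Cdh6 did the reverse within the same layer, with 434 CPM in cluster 1, 152 CPM in cluster 7 and 24.7 CPM in cluster 13. Cdh7 was raised in layer 5, at 121 and 129 CPM, against 2.63 and 4.17 CPM in upper-layer neuron-like nuclei.

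Cdh9 marked layer 6 neuron-like nuclei (433 and 350 CPM) and MGE-type interneuron-like nuclei (213 and 346 CPM). It was at 0 UMIs in astrocyte-like nuclei of both libraries. Cdh8 was highest in striatal projection neuron-like nuclei, at 2061 and 2198 CPM. That level was uneven between the striatal clusters: 2759 CPM over both libraries in the Ebf1, Tac1 and Isl1 cluster and 994 CPM in the Drd2 and Penk cluster. Cdh11 was shared by subplate (876 and 712 CPM) and layer 6 (720 and 766 CPM) neuron-like nuclei, and the order of these populations differed between the libraries. Cdh10 was highest in intermediate progenitor-like nuclei, at 1225 and 1350 CPM, and lowest in striatal ones, at 89.1 and 115 CPM. Among the compared populations, Cdh20 was highest in glial ones. It stood at 654 and 783 CPM in astrocyte-like and 884 and 574 CPM in oligodendrocyte precursor-like nuclei. In layer 6 it stood at 5.7 and 2.9 CPM. Unnamed clusters were left out of this comparison. Cdh20 was also among the leading genes of unnamed cluster 23 (23 and 137 nuclei), which scored best as migrating excitatory neuron, at -0.412.

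The type I cadherins and Cdh13 had other profiles. Cdh2 (N-cadherin), the main adherens junction cadherin of the neural tube, ranged over the populations only 2.91-fold, from 459 CPM in oligodendrocyte precursor-like to 1333 CPM in layer 6 neuron-like nuclei. Cdh4 (R-cadherin) was highest in migrating excitatory neuron-like nuclei, at 1320 and 1582 CPM, followed by intermediate progenitor-like nuclei at 1104 and 992 CPM. Cdh13 (T-cadherin), which lacks a cytoplasmic part and is anchored by lipid, had an opposite profile. It was 27.9 and 86.1 CPM in intermediate progenitor-like and 1503 and 1626 CPM in striatal projection neuron-like nuclei. Across the 12 populations the Pearson correlation of Cdh13 with Cdh4 was -0.90, the lowest among pairs of members. This describes 12 points that share 2 libraries. The highest correlation was between Cdh18 and Cdh11, at 0.88.

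Among the nonclustered protocadherins, Pcdh11x, an X-linked gene, stood at 1439 and 1508 CPM in oligodendrocyte precursor-like nuclei, 7.16 times its mean over the populations, and the next population, astrocyte-like nuclei, had 238 and 292 CPM. Pcdh15, known as the tip-link protein of hair cells, followed the same population at 2653 and 2738 CPM. Pcdh9 and Pcdh7 were present in every population. Pcdh9 was highest in layer 6, at 7208 and 5827 CPM, and so was Pcdh7, at 2552 and 2278 CPM. Pcdh10 was highest in radial glia-like (221 and 384 CPM), striatal (265 and 270 CPM) and astrocyte-like nuclei (264 and 327 CPM), with an order that differed between the libraries. Pcdh19, whose human counterpart is mutated in a form of epilepsy, was highest in MGE-type interneuron-like nuclei at 129 and 167 CPM. Pcdh1, Pcdh8, Pcdh18 and Pcdh20 stayed at or below 40.7 CPM in each population of each library, so their order is poorly resolved.

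Among the large cadherins, Celsr1 was raised in radial glia-like (294 and 206 CPM) and intermediate progenitor-like nuclei (220 and 224 CPM) and stood at 1.7 and 1.8 CPM in layer 5. Celsr2 and Celsr3 were highest in intermediate progenitor-like or migrating excitatory neuron-like nuclei. Fat1 was raised in astrocyte-like nuclei, at 133 and 170 CPM. Fat3 was highest in layer 5 (1091 and 1026 CPM), and in the NCKO-labelled library the striatal level of 1115 CPM was above it. Fat4 and Dchs1, a receptor and ligand pair, were low and did not share a leading population. Fat4 was 134 and 107 CPM in upper-layer neuron-like nuclei. Dchs1 was 66.3 and 83.8 CPM in intermediate progenitor-like nuclei.

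Small classes below 100 nuclei added a further pattern. In the 40 and 121 Cajal-Retzius-like nuclei, Fat3 stood at 3565 and 3406 CPM and Cdh4 at 2473 and 1957 CPM, above each of the 12 populations. Pcdh11x was 853 and 1411 CPM there. In 32 and 78 mural or meningeal-like nuclei Cdh11 stood at 684 and 630 CPM.

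The second question was whether levels differed between the libraries within a population. A gene was measured in a population with at least 50 UMIs over both libraries and called higher or lower at 1.5-fold on the scale of CPM + 5. Over all kept nuclei together, 0 of 31 members passed in either direction, where 0.42% of 17163 genes were higher and 0.775% lower in the NCKO-labelled library. Pcdh11x came nearest above, at 94.9 and 138 CPM, a ratio of 1.46 (1.39 to 1.53). Celsr1 was lowest, at 18.7 and 11.6 CPM, a ratio of 0.619 (0.545 to 0.703). Values over all nuclei mix populations of unlike shares, and intermediate progenitor-like nuclei, where Celsr1 is raised, numbered 222 and 171. Within them its ratio was 1.02 (0.776 to 1.338), and within radial glia-like nuclei it was 0.701 (0.586 to 0.839). The part of the population mix was not tested.

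Within populations the counts were uneven. Of 276 measured pairs of a member and a population, 44 (15.9%) were higher in the NCKO-labelled library, against 4.3% of all gene and population pairs. In the other direction 7 pairs (2.54%) were lower, against 3.63%. These pairs involved 21 members on the higher and 5 on the lower side. The share of all genes called in at least 1 population was not computed, so these member counts have no background. The count of higher pairs ranged from 23 to 71 over the other settings and that of lower pairs from 1 to 19. The lowest counts came from other clusterings and the highest from dropping the minimum of 50 UMIs per pair. Genes of at least 100 kb made up 22 of the 31 members. In that length class 16.1% of member pairs and 5.62% of all pairs were higher, and among shorter genes 15.4% and 3.88%. The part of gene length, tissue dissection and library in these counts was not tested, and with 1 library per label genotype and library cannot be told apart.

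**Figure D2:**
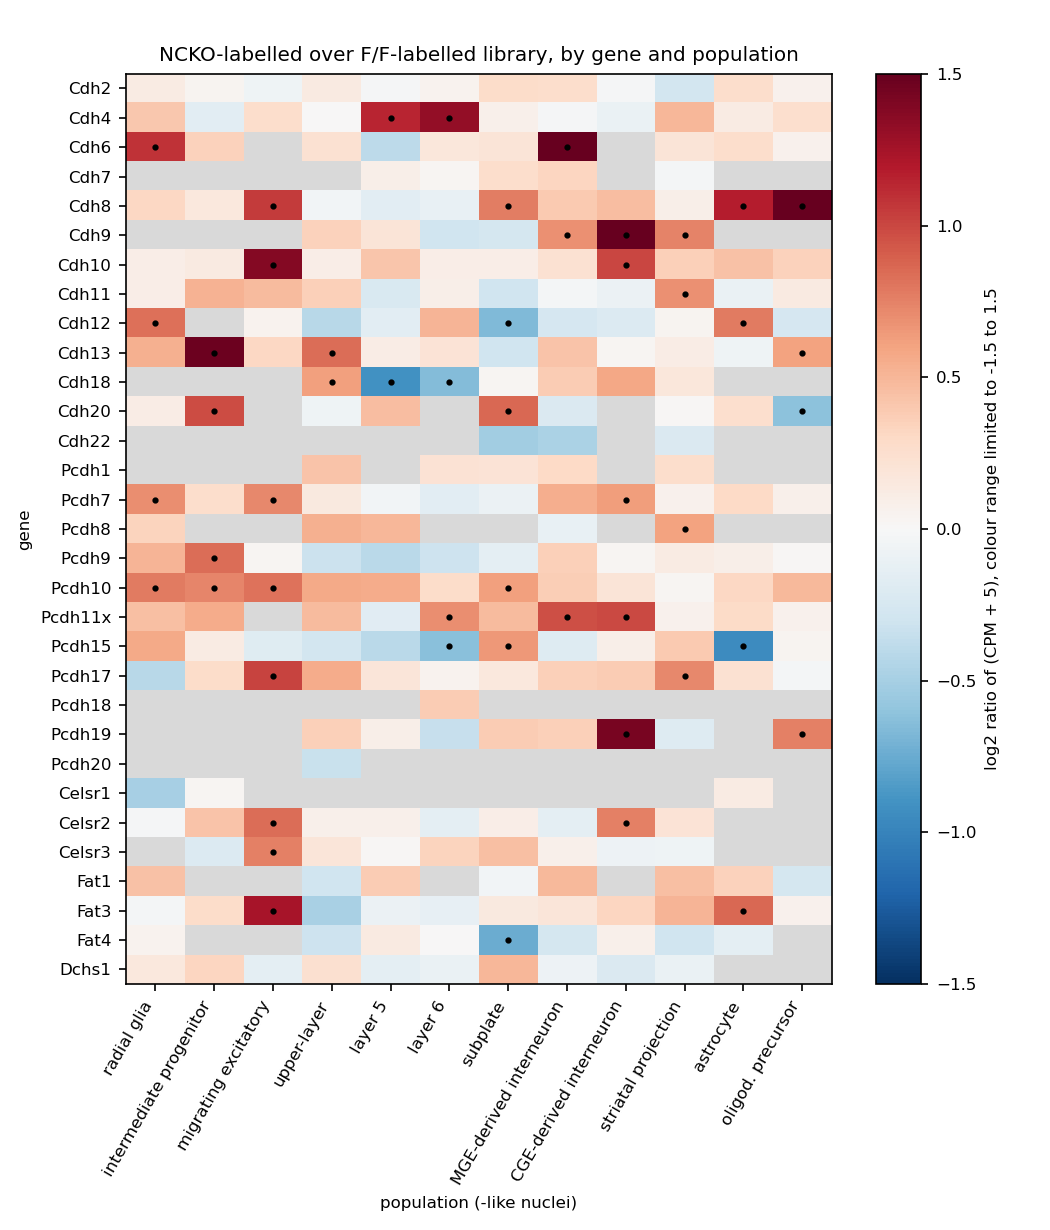
Log2 ratio of (CPM + 5), NCKO-labelled over F/F-labelled library, for each gene (rows) and population (columns), with colours limited to -1.5 to 1.5, grey where under 50 UMIs were counted and black points on the 51 pairs past 1.5-fold. Red cells outnumber blue ones among the pointed pairs (44 and 7), and Cdh10 and Pcdh10 are on the red side in 12 of 12 populations.

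Upper-layer neuron-like nuclei held 1323 and 1486 nuclei and 27 measured members. There 2 members (7.41%) were higher, against 1.89% of 11823 genes, and 0 were lower, against 2.84%. Cdh13 stood at 744 CPM in the F/F-labelled and 1336 CPM in the NCKO-labelled library, a ratio of 1.80 (1.73 to 1.86). The same direction appeared in each of the 4 upper-layer clusters, with ratios of 1.54, 2.30, 2.39 and 2.69 in clusters 1, 7, 13 and 24. Cdh18 stood at 59.9 and 94.2 CPM, a ratio of 1.57 (1.38 to 1.80). This call was lost in 5 of 11 other settings. In none of the 4 clusters was Cdh18 past 1.5-fold, with ratios of 1.49 and 1.13 in clusters 1 and 7. Clusters 13 and 24 held 13 and 3 of its UMIs over both libraries.

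The remaining upper-layer members were within 1.5-fold on the CPM + 5 scale. Pcdh10 (97.2 and 147 CPM) and Pcdh17 (105 and 158 CPM) had log2 ratios of 0.57 and 0.56. Fat3 (882 and 627 CPM) and Cdh12 (918 and 687 CPM) had ratios of 0.711 (0.681 to 0.741) and 0.748 (0.719 to 0.779). Pcdh9 was 3292 and 2626 CPM, a ratio of 0.798. Cdh4, Cdh8 and Cdh20 had intervals that included 1. The Cdh8 value joined opposite clusters: 312 and 204 CPM in cluster 1, but 336 and 640 CPM in cluster 7. Summed upper-layer markers stood at 9357 and 7320 CPM in these nuclei, and cluster 1 held 555 and 796 of them. With the 4 clusters given their F/F-labelled proportions, 2 members were higher and 0 lower. That count does not name the members, and Cdh18 was past 1.5-fold in none of the 4 clusters.

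**Figure D3:**
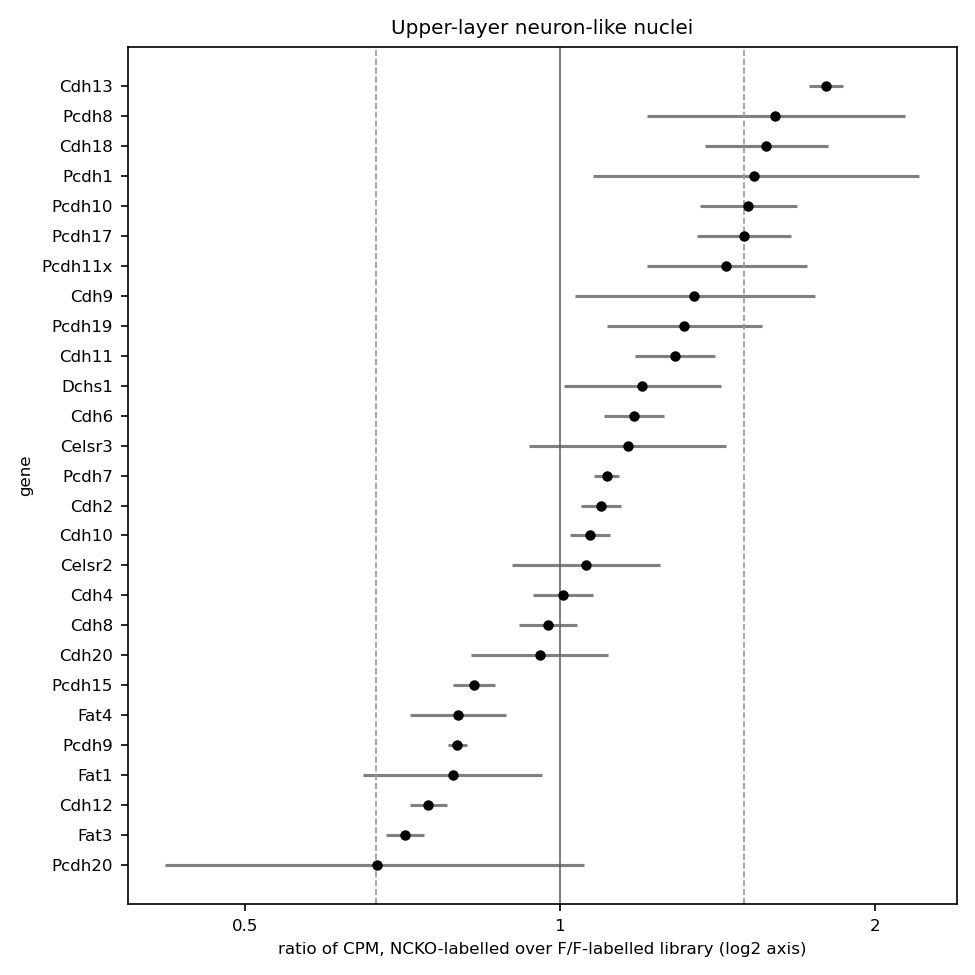
Ratio of CPM, NCKO-labelled over F/F-labelled library, for the 27 members measured in upper-layer neuron-like nuclei, on a log2 axis, with 95% counting intervals as bars, a solid line at 1 and dashed lines at 1.5-fold either way on the CPM scale. Cdh13 (1.80) is at the top with a narrow bar, and Fat3 (0.711) and Cdh12 (0.748) lie below 1 with narrow bars.

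In the deep layers Cdh4 and Cdh18 went in opposite directions. Cdh4 stood at 195 and 494 CPM in layer 6 neuron-like nuclei, a ratio of 2.54 (2.31 to 2.79), and at 150 and 339 CPM in layer 5, a ratio of 2.25 (1.97 to 2.58). Cdh18 stood at 666 and 352 CPM in layer 5, a ratio of 0.529 (0.489 to 0.572), and at 878 and 557 CPM in layer 6, a ratio of 0.635 (0.5998 to 0.671). Both Cdh4 calls and the layer 5 Cdh18 call held in 11 of 11 other settings, and the layer 6 Cdh18 call in 6 of 11. In the subplate neuron-like nuclei, where Cdh18 is highest, it differed little, at 2407 and 2457 CPM. Of 26 members measured in layer 5, 1 was higher and 1 lower (3.85% each, against 3.05% and 2.63% of genes). In layer 6 the counts were 2 and 2 of 25 (8% each, against 3.15% and 2.13%). The further layer 6 calls were Pcdh11x, at 11.5 and 21.7 CPM, and Pcdh15, at 494 and 320 CPM. They were kept in 8 of 11 other settings (log2 ratio down to 0.22) and in 6 of 11 (up to -0.06).

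Subplate neuron-like nuclei had 4 of 27 members higher (14.8%, against 4.08%) and 2 lower (7.41%, against 3.28%). Cdh8 was 159 and 274 CPM, and Pcdh15 was 548 and 860 CPM. Cdh12 was 253 and 159 CPM, a ratio of 0.627 (0.544 to 0.722), and Fat4 was 49.7 and 27.5 CPM. The Pcdh15 and Cdh12 calls were kept in 6 of 6 other settings, and the Cdh8 and Fat4 calls in 5 of 6. Summed CGE-type interneuron markers in these nuclei were 339 and 858 CPM, with 1 of 8 at 0 in each library, and their part was not tested.

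Migrating excitatory neuron-like nuclei had the highest share of members past the threshold, 8 of 16 higher (50%, against 7.68% of genes) and 0 lower (7.68%). The population held 189 and 240 nuclei. Cdh10 stood at 341 and 897 CPM, a ratio of 2.63 (2.21 to 3.14), Cdh8 at 378 and 789 CPM, and Fat3 at 218 and 521 CPM. Pcdh7, Pcdh10, Pcdh17, Celsr2 and Celsr3 made up the rest, with log2 ratios from 0.72 to 1.01. Summed markers of migrating neurons were 9953 and 12130 CPM. The Fat3 log2 ratio was 1.24 as reported, and over 8 other settings its lowest was 0.17, with the call kept in 7. The Cdh8 call was also kept in 7 of 8, with a lowest log2 ratio of 0.51. The Cdh10 call was kept in 8 of 8, with log2 ratios from 0.69 to 1.40.

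Among progenitors, radial glia-like nuclei had 4 of 22 members higher (18.2%, against 6.97%) and 0 lower (5.14%). Cdh6 was 65.2 and 144 CPM, a ratio of 2.21 (1.63 to 3.05), and Pcdh10 was 221 and 384 CPM, a call kept in 8 of 9 other settings. Celsr1 was 294 and 206 CPM there, a log2 ratio of -0.50. The choroid plexus markers given above were lower in the NCKO-labelled library, as Celsr1 was, while Cdh6 and Pcdh10 were higher. The part of the choroid plexus markers in these values was not tested. In intermediate progenitor-like nuclei 4 of 19 were higher (21.1%, against 7.77%) and 0 lower (6.49%), with Pcdh9 at 1082 and 1934 CPM. That call was kept in 7 of 8 other settings, with a lowest log2 ratio of 0.28. In the same nuclei summed CGE-type markers were 185 and 462 CPM, ganglionic eminence markers 227 and 464 CPM and astrocyte markers 87.2 and 170 CPM, and their part was not tested.

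In MGE-type interneuron-like nuclei 3 of 28 were higher (10.7%, against 3.35%) and 0 lower (3.03%). Cdh6 rested on 21 and 135 UMIs, or 9.87 and 43.1 CPM, a ratio of 4.36 (2.74 to 7.28). Cdh9 was 213 and 346 CPM, a call kept in 9 of 11 other settings, and Pcdh11x was 51.2 and 105 CPM. Summed migrating-neuron markers in these nuclei were 1351 and 2329 CPM, and their part was not tested. In CGE-type nuclei 6 of 21 were higher (28.6%, against 6.2%) and 0 lower (3.68%), with Cdh10 at 195 and 393 CPM and Pcdh7 at 468 and 726 CPM.

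**Figure D4:**
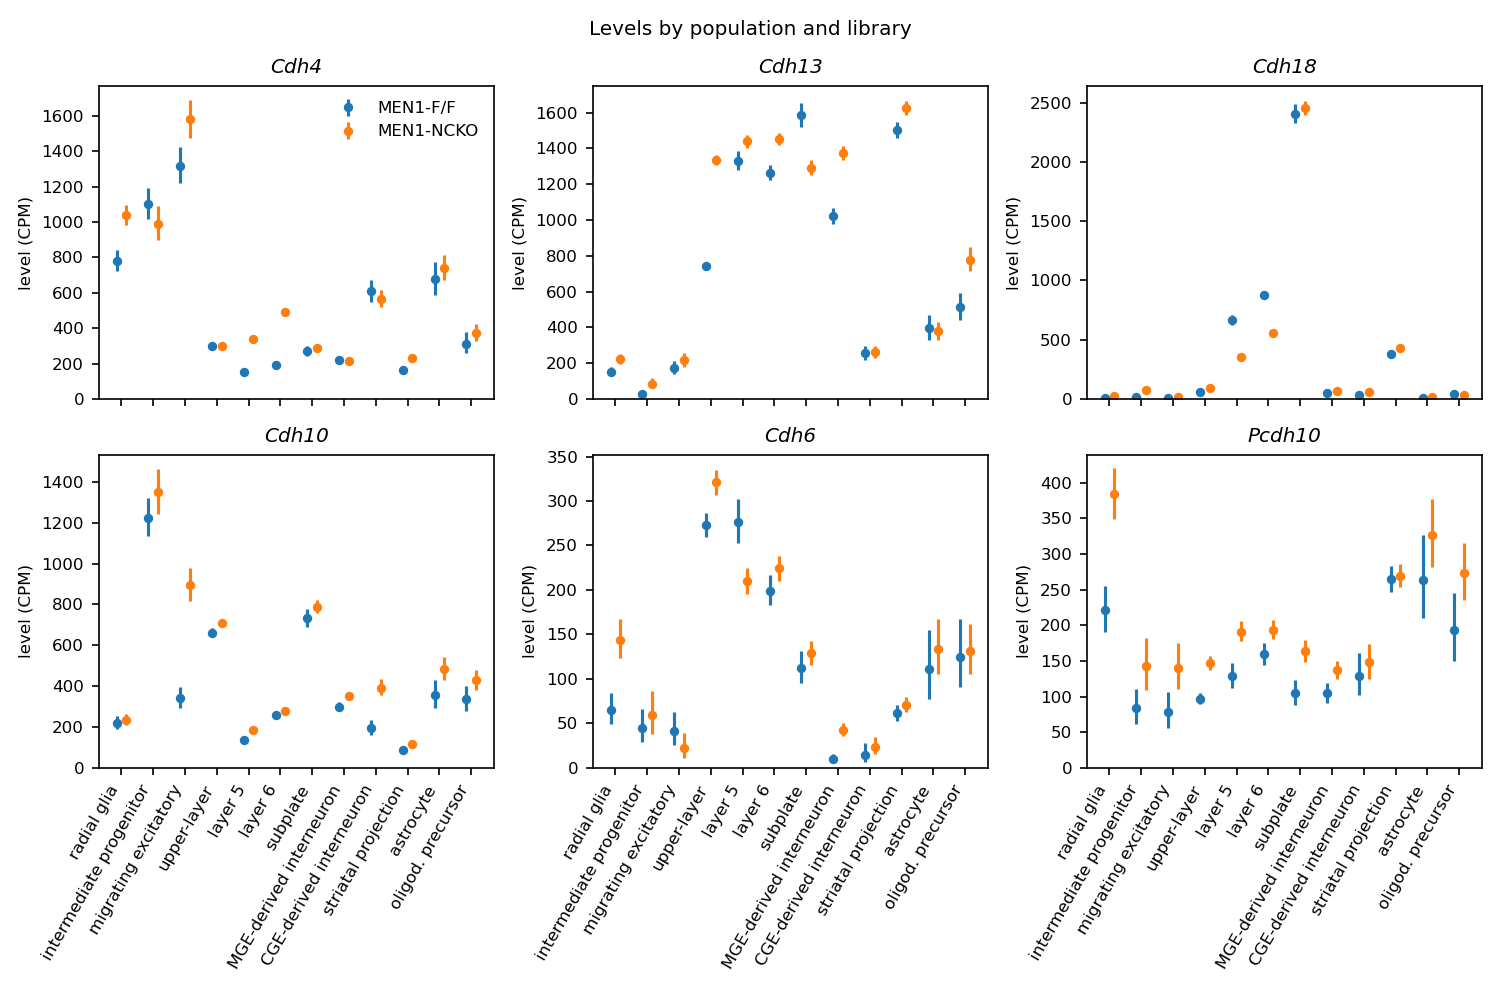
Level in CPM of 6 genes in 12 populations, with blue points for the F/F-labelled and orange points for the NCKO-labelled library and bars for 95% counting intervals. The genes were picked after their values were seen. Cdh4 separates the libraries in layers 5 and 6, Cdh13 in upper-layer neuron-like nuclei and Cdh18 in layers 5 and 6, while the Cdh18 subplate points (2407 and 2457 CPM) lie together.

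In striatal projection neuron-like nuclei 4 of 28 members were higher (14.3%, against 2.32%) and 0 lower (1.93%). Pcdh17 was 228 and 378 CPM, and Cdh11 was 206 and 334 CPM. In the Drd2 and Penk cluster Pcdh17 had a ratio of 2.03 (1.76 to 2.34) and Cdh11 of 1.995 (1.71 to 2.33). In the Ebf1, Tac1 and Isl1 cluster the ratios were 1.48 (1.32 to 1.67) and 1.44 (1.28 to 1.64). The Cdh11 call was kept in 9 of 11 other settings. Cdh8, the striatal member by level, was alike in both libraries at 2061 and 2198 CPM. In astrocyte-like nuclei 3 of 19 were higher (15.8%, against 7.88%) and 1 lower (5.26%, against 6.08%). There Fat3 was 315 and 577 CPM, a call kept in 8 of 10 other settings (log2 ratio 0.87, down to 0.16). Pcdh15 was 105 and 52.2 CPM, from 33 and 30 UMIs. In oligodendrocyte precursor-like nuclei 3 of 18 were higher (16.7%, against 7.35%) and 1 lower (5.56%, against 6.64%). Cdh20, a gene raised in that class, was 884 and 574 CPM, a ratio of 0.650 (0.558 to 0.756). That call was kept in 5 of 7 other settings, with log2 ratios from -0.84 to -0.40. Pcdh11x and Pcdh15 were within 1.5-fold there. Summed Cajal-Retzius markers in this class were 336 and 72.2 CPM and CGE-type markers 361 and 604 CPM, and their part was not tested.

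Cdh10 and Pcdh10, picked after their values were seen, had log2 ratios above 0 in 12 of 12 populations. The share of all genes above 0 in 12 of 12 was not computed. The median log2 ratio of all genes ran from -0.013 (oligodendrocyte precursor-like) to 0.058 (layer 6). Those of Cdh10 ran from 0.10 (upper-layer) to 1.38 (migrating) with a median of 0.29. Those of Pcdh10 ran from 0.03 (striatal) to 0.81 (migrating) with a median of 0.52. Cdh2 had no call in any population, with log2 ratios from -0.27 to 0.27. Cdh22 was measured in only 3 populations and was below 0 in 3 of 3, without a call. Its log2 ratios ran from -0.52 (subplate) to -0.22 (striatal). Its highest level over both libraries was 29.55 CPM, in CGE-type nuclei. The values of a gene over populations share the same 2 libraries and are not replicates.

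The intracellular partners of these genes were read by list, chiefly in upper-layer neuron-like nuclei, where 1.89% of all genes were higher and 2.84% lower. Of 11 catenins and actin linkers, 1 was higher and 1 lower, with a median log2 ratio of 0.00. Ctnna1 (αE-catenin) was 44.7 and 18.8 CPM, a ratio of 0.421 (0.335 to 0.526), and Ctnna3 (αT-catenin) was 726 and 1210 CPM. Ctnna2, the neuronal α-catenin, was 4626 and 4873 CPM. Of 10 measured planar polarity partners 1 was lower and 0 higher. That gene was Ankrd6 (Diversin), at 66.0 and 23.9 CPM, and the other end of the list was Prickle2, at 624 and 816 CPM. In radial glia-like nuclei, where 6.97% of all genes were higher and 5.14% lower, 0 of 9 catenins and linkers passed in either direction, and Prickle2, at 101 and 192 CPM, was the 1 polarity partner that did. Of the 9 WAVE complex genes, the actin partners of protocadherins, 0 passed in upper-layer neuron-like nuclei, where they lay between Abi1 (log2 ratio -0.13) and Wasf1 (0.40), and Wasf1 alone passed in radial glia-like nuclei (0.75). Of the 11 cleavage and turnover genes only Pcsk5, a protein convertase, passed in either class (0.66 and 0.83). Of 22 other cadherin superfamily genes 4 were measured in upper-layer neuron-like nuclei, where Clstn2, a synaptic calsyntenin, was 2089 and 1319 CPM and Cdh24 was 8.23 and 18.1 CPM.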

How the data were processed

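The deposited matrices give raw UMI counts for each barcode and gene. The authors ran Cell Ranger 6.1.0 (per the file headers) on mm10, per the submitters' processing notes. No source used here states whether counting used strand, and 17 members overlap another counted gene, so they may share UMIs with it. Barcodes with under 500 genes or over 5% mitochondrial UMIs were left out. Doublets were scored against simulated ones and the top 0.8% per 1000 barcodes removed. Of 150 made doublets 45.3% were found, so some remain. Counts were scaled to 10000 UMIs, and 2000 variable genes without the cadherin superfamily, 30 principal components and 20 neighbours were clustered jointly with the Leiden algorithm at resolution 1 (Python 3.11.15, scikit-learn 1.9.0, leidenalg 0.10.2, scipy 1.17.1). Clusters were named from marker lists, and names rebuilt this way may differ from the study's. UMIs were summed per library and population and scaled by that sum to CPM (counts per 1e6 UMIs). Intervals are exact Poisson limits for levels and exact conditional binomial limits for ratios, at 95%, for counting error only. Log2 ratios used CPM + 5. The ratio calculation was checked on simulated data.

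The members, gene lists and comparisons were chosen with earlier results of these data known. All 31 members were accounted for. By rule, raised members and the 3 highest and 3 lowest ratios per population with at least 100 UMIs were open to naming, and every measured member in upper-layer neuron-like nuclei. Other member values, some on fewer UMIs, were named after they were seen. The promoters, the CG search, the length classes, the cluster values and the 6 plotted genes were chosen after seeing the data. Positions come from GENCODE vM21 (GRCm38), which held 32241 of the 33938 gene identifiers. Alternatives covered the clustering, doublets, barcode filter, scaling, depth, pseudocount and UMI minimum.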

Additional observations from a re-analysis of the deposited data

Results flagged for a closer look

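For 4 of 31 members the libraries differed past 1.5-fold in opposite directions in different populations, and the difference between populations was not tested. The share of all genes with such opposite calls was not computed, so this count has no background. Of all gene and population pairs, 4.3% were higher and 3.63% lower. The log2 ratio of NCKO-labelled over F/F-labelled was -0.91 for Cdh18 in layer 5 and 0.61 in upper-layer neuron-like nuclei. The upper-layer call was kept in 6 of 11 other settings, and Cdh18 was past 1.5-fold in no single upper-layer cluster. For Cdh12 the log2 ratio was -0.66 in subplate neuron-like and 0.82 in radial glia-like nuclei, the latter from 14 and 39 UMIs. For Cdh20 it was -0.62 in oligodendrocyte precursor-like and 0.97 in intermediate progenitor-like nuclei, the former kept in 5 of 7 other settings and the latter from 33 and 52 UMIs. For Pcdh15 it was -0.94 in astrocyte-like nuclei, from 33 and 30 UMIs, and 0.65 in subplate neuron-like nuclei.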

How the results depend on the processing

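Pairs lower in the NCKO-labelled library, 7 as reported, numbered 1 with the cadherin genes kept for clustering, 3 at Leiden resolution 2, 3 without doublet removal, 1 with clusters drawn on F/F-labelled nuclei, 14 with nuclei thinned to 1000 UMIs and 19 with no minimum of UMIs. Pairs higher, 44 as reported, numbered 23 with the cadherin genes kept, 29 at resolution 2, 24 with F/F-labelled clusters and 71 with no minimum. Reclustering also changed which populations reached 100 nuclei, so fewer pairs could be compared in some settings: 63 of the 93 ratios followed had a value with the cadherin genes kept or at resolution 2. In upper-layer neuron-like nuclei, members lower (0 as reported) numbered 1 without doublet removal, and members higher (2) numbered 5 with thinned nuclei, 4 with CPM + 1, 1 with CPM + 20, and 3 with the cadherin genes kept, at resolution 2 or with F/F-labelled clusters. Members with the same leading population, 16 as reported, numbered 25 without doublet removal. No followed ratio past 1.5-fold changed sign. Calls on few UMIs, such as Cdh6 in MGE-type nuclei, are limited by depth. No paired analysis was possible because each label has 1 library and no test was run.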
